A study of Mus musculus with 6 samples.

Results

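A set of 10 genes around folliculin was followed in mouse oocytes: Flcn and its binding partners Fnip1 and Fnip2, the Rag GTPases Rraga, Rragb and Rragc, the transcription factors Tfeb, Tfe3 and Mitf, and Gpnmb, a gene those factors are known to activate. They were chosen by name for their place in this pathway, and all 10 were found among the 27179 gene identifiers of the count files. Of the 10, 9 had enough counts to test, out of 14957 tested genes in all, and the exception was Tfeb. Each of the 9 had at least 27 counts in every library of both genotypes.

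The oocytes were at the germinal vesicle (GV) stage, fully grown and still arrested in the first meiotic prophase. In the Prdm10 maternal knockout the floxed exon 5 of Prdm10 was deleted with Zp3-cre, a recombinase driven by a promoter that is active in growing oocytes, so other cells of these females kept the gene. The control group is labelled wildtype, and the labels do not say whether it carried the floxed allele, nor give a strain or an age. Each genotype had 3 libraries, with about 10 oocytes pooled in each library, and the labels call them biological replicates without saying whether separate females were used. The p-values therefore measure the spread between pools, and a change in the number of oocytes with a transcript cannot be told apart from a change in RNA per oocyte.

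Folliculin and an FNIP protein form a complex that acts at the lysosome surface as a GTPase-activating protein for the Rag C and Rag D proteins. Rag A or Rag B pairs with Rag C or Rag D, and the pair in its active state brings the kinase complex mTORC1 to the lysosome when amino acids are plentiful. Once folliculin has acted on Rag C or D, mTORC1 can phosphorylate TFEB, TFE3 and MITF and hold them in the cytoplasm. Where folliculin is lost, these factors are known to enter the nucleus and to switch on lysosomal genes and GPNMB by binding E-boxes of the sequence CACGTG.

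The DNA just before the start of 5 of these genes is shown for 2 features of it. They are the start of a neighbouring gene close to that of Flcn, and the E-boxes before Rragb, Rragc and Fnip1. Whether these features bear on the results was not tested. The sequences are from RefSeq for GRCm38.p6, read 5′ to 3′ on the gene's strand, and all 10 genes had at least 1 such window. In the Flcn window (chr11:59810040-59810289, minus strand) the capitals are the 40 bases between its start and that of the long noncoding RNA gene Gm16062, which is read in the opposite direction.
Flcn: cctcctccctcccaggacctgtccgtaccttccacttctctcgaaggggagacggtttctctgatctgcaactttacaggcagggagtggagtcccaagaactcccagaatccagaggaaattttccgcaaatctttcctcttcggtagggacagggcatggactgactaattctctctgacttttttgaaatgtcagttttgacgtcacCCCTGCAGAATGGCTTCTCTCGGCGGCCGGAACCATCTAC
In the other windows capitals mark CACGTG, which reads the same on both strands. They are Rragb (chrX:153139708-153139957, plus strand), Fnip2 (chr3:79567680-79567929, minus strand) and, cut to 40 bases around the E-box, Rragc (chr4:123917304-123917343, plus strand) and Fnip1 (chr11:54438087-54438126, plus strand).
Rragb: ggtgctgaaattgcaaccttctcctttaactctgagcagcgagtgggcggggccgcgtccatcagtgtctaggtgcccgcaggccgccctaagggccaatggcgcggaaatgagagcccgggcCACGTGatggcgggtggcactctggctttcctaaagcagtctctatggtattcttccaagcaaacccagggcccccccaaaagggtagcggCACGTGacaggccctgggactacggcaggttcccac
Fnip2: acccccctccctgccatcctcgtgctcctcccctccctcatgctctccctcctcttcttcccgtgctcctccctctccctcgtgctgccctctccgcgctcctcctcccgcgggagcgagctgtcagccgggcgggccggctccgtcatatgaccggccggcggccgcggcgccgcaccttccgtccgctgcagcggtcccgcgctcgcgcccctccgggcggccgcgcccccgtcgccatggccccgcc
Rragc: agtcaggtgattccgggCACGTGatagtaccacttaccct
Fnip1: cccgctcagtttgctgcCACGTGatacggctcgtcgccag

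The starts used here are those of the RefSeq promoter table, 153139958 for Rragb, 54438179 for Fnip1 and 79567679 for Fnip2. For these 3 genes they lie inside the gene spans given with the values, which reach further upstream. Rragb had 2 E-boxes in the 250 bases before this start, ending 122 and 31 bases before it, and Rragc and Fnip1 had 1 each. Of 32851 such windows of all annotated genes, 6.02% held at least 1 CACGTG and 0.429% held 2 or more, and of the windows of tested genes 7.97% and 0.754% did. All 4 boxes were followed by an A, so that the opposite strand reads TCACGTG, a form that overlaps CACGTG and was present on either strand in 3.13% of all windows. With the 50 bases after the start included, Rragb had 3, a number reached by 0.0883% of the windows. The windows of Flcn, Fnip2, Rraga, Tfeb, Tfe3, Mitf and Gpnmb did not contain CACGTG. These matches describe the letters only, since no binding was measured.

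Total counts were between 22492228 and 38831227 per library, and Prdm10 had 2.80 to 3.82 CPM in the knockout and 10.4 to 23.1 CPM in the wildtype libraries (CPM, read counts scaled to a common library size with TMM factors). Its count also covers exons outside the deleted one. Wildtype replicate 1 stood apart, with Spearman correlations across tested genes of 0.976 and 0.975 with the other wildtype libraries, which correlated at 0.996, so results are also given without it. All 10 oocyte markers examined, such as Zp3 and Gdf9, were abundant, summing to 23080 to 24910 CPM in knockout and 19310 to 24290 CPM in wildtype libraries, and the lowest sum was that of wildtype replicate 1. The 12 granulosa and cumulus markers summed to 78.5 to 107 CPM in knockout and 86.1 to 110 CPM in wildtype libraries. These sums hide uneven markers. Hsd3b1 had 11.3 CPM in wildtype replicate 1 and 11.5 CPM in knockout replicate 3, and at most 3.57 CPM elsewhere. Cyp11a1 had 11.4 and 11.05 CPM in these libraries and at most 2.24 CPM elsewhere. Cyp19a1 differed, with 27.1 CPM in wildtype replicate 1 and 40.6 and 47.3 CPM in wildtype replicates 2 and 3. The part of somatic cells in the library differences was not tested.

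Of the 9 tested genes, 1 fell, Flcn, 2 rose, Rragb and Fnip2, and 6 did not pass the quasi-likelihood test of edgeR at an adjusted p of 0.05. Over all tested genes 11.2% passed, 5.87% higher and 5.34% lower in knockout oocytes. The libraries of the genotypes did not overlap for 6 of the 9, where they did not overlap for 40.2% of all tested genes. The median log2 fold change of the 9 was 0.23, beside -0.00 over all tested genes. The genes were named with earlier results of these data known, so these counts describe them and are not an independent test of the pathway.

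**Figure D1:**
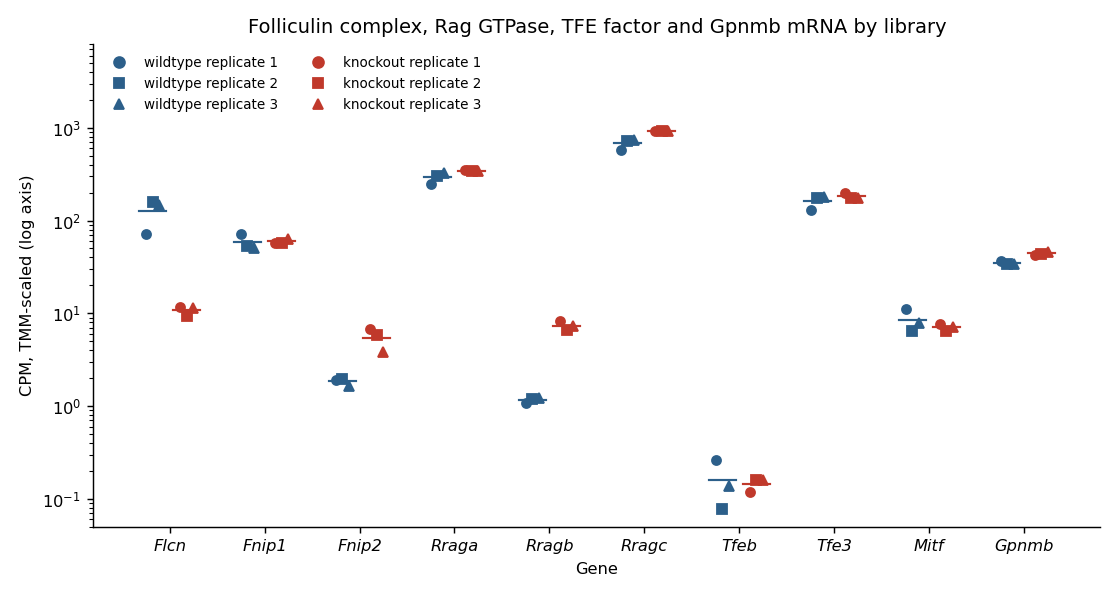
CPM of the 10 genes in each library on a log axis, with wildtype libraries in blue, knockout libraries in red, a different marker for each replicate number and a line at each group's mean (n = 3). The knockout libraries sit at 9.30 to 11.7 CPM for Flcn, below the wildtype libraries at 71.4 to 160 CPM, and above them for Rragb and Fnip2.

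Flcn encodes folliculin itself (Entrez 216805, GRCm38 chromosome 11, 59791408 to 59810039). It had 11.7, 9.30 and 11.4 CPM in knockout replicates 1 to 3, from 396, 348 and 432 counts. The wildtype libraries had 71.4, 160 and 148 CPM, from 2973, 4156 and 3232 counts. The knockout libraries were alike and far below all wildtype libraries, and wildtype replicate 1 was the lowest of its group, 1.11 lower on the log2 scale than the mean of the other 2. The fitted log2 fold change was -3.55 (SE 0.313, edgeR adjusted p = 0.00101), and only 24 of the 14957 tested genes had a lower one. Without wildtype replicate 1 it was -3.83, and over all 14 alternative analyses it lay between -3.83 and -3.35 and stayed past the threshold.

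Gm16062, whose start lies 40 bases from that of Flcn on the other strand, had 1, 4 and 3 counts in the knockout and 54, 23 and 23 counts in the wildtype libraries. Every knockout library was below every wildtype library. Summed over libraries and scaled to their size, its count was 15.2-fold lower in knockout oocytes (8 against 100 counts, exact 95% interval 7.45 to 36.3, counting error only). It fell in the fit too (log2 -3.83, SE 0.434, edgeR adjusted p = 0.00299), though it had enough counts for the test through the wildtype libraries alone. The gene on the other side of Flcn, Pld6, which encodes a mitochondrial phospholipase of the piRNA pathway, lay 3750 bases away and had a log2 fold change of 0.29 (SE 0.178, edgeR adjusted p = 0.318).

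Fnip1 and Fnip2 encode the alternative partners through which folliculin reaches the Rag proteins. Fnip1 (Entrez 216742, chromosome 11, 54438107 to 54518241) had 57.4, 57.8 and 63.9 CPM in knockout and 72.1, 52.6 and 51.0 CPM in wildtype libraries. The groups overlapped, because wildtype replicate 1 was above and the other wildtype libraries below all knockout libraries. The log2 fold change was 0.03 (SE 0.160, edgeR adjusted p = 0.930), and without wildtype replicate 1 it was 0.20 with an edgeR adjusted p of 0.0617.

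Fnip2 (Entrez 329679, chromosome 3, 79455971 to 79568151) had 6.75, 5.77 and 3.79 CPM in knockout and 1.92, 1.96 and 1.65 CPM in wildtype libraries. All knockout libraries were above all wildtype libraries, with knockout replicate 3 the lowest of its group. It rose 2.93-fold (log2 1.55, SE 0.253, edgeR adjusted p = 0.0106) on 36 to 229 counts per library. The call was lost without knockout replicate 1 (log2 1.37, edgeR adjusted p = 0.0546) and without knockout replicate 2 (log2 1.48, edgeR adjusted p = 0.0643), and it was kept without wildtype replicate 1. Fnip2 overlaps Gm17359, a gene on the opposite strand with 0.558 ± 0.125 against 0.240 ± 0.102 CPM (SD, n = 3 each, edgeR adjusted p = 0.0920), and the strand setting of the counting is not given. The long noncoding RNA gene 4930589L23Rik, 40 bases from the Fnip2 gene span, had too few counts to test.

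Within each library, Fnip2 made up 9.16, 7.88 and 4.84% of the combined Fnip1 and Fnip2 counts per transcript length in knockout replicates 1 to 3. In wildtype replicates 1 to 3 its share was 2.23, 3.10 and 2.69%. Fnip1 was thus the major partner transcript in every library, and the Fnip2 share was higher in all knockout libraries. The means were 7.29 ± 2.22 and 2.67 ± 0.436% (SD, n = 3 each). An exact permutation test over libraries, two-sided, gave p = 0.1, the floor for 3 against 3, or 0.15 adjusted over the 3 shares computed. In counts without division by length the share ran from 5.60% (95% Wilson interval 4.77 to 6.56) to 10.5% (9.30 to 11.9) in knockout and from 2.59% (2.09 to 3.22) to 3.60% (2.75 to 4.70) in wildtype libraries. These intervals cover counting error only.

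**Figure D2:**
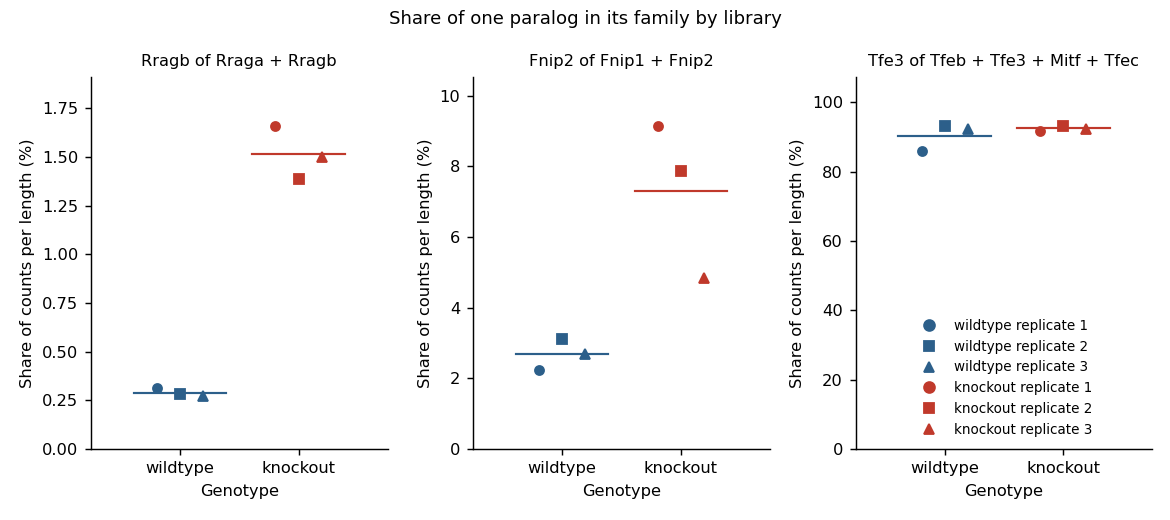
Share of Rragb in Rraga plus Rragb, of Fnip2 in Fnip1 plus Fnip2, and of Tfe3 in the 4 TFE family genes, as a percentage of counts per transcript length in each library, with a line at each group's mean (n = 3). The Rragb and Fnip2 shares are higher in every knockout library than in any wildtype library, and the Tfe3 shares overlap.

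Rag A and Rag B are closely related GTPases that are thought to fill the same place in the Rag pair. Rragb (Entrez 245670, chromosome X, 153137644 to 153190192) had 8.16, 6.68 and 7.28 CPM in knockout libraries, from 277, 250 and 275 counts. Its wildtype libraries had 1.08, 1.19 and 1.24 CPM, from 45, 31 and 27 counts. Both groups were tight and well apart, and wildtype replicate 1 lay with the rest of its group. Rragb rose 6.32-fold (log2 2.66, SE 0.186, edgeR adjusted p = 0.000337), and 62 of the 14957 tested genes had a larger log2 fold change. In each of the 14 alternatives the value was between 2.584 and 2.702 and past the threshold. The stricter filter among them admitted Rragb through the knockout libraries alone.

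Rraga (Entrez 68441, chromosome 4, 86575673 to 86577285) had 346, 340 and 342 CPM in knockout and 246, 306 and 323 CPM in wildtype libraries. Every knockout library was above every wildtype library, but the wildtype libraries were spread over a wider range than the gap to the knockout group. The log2 fold change of 0.23 (SE 0.132) did not pass (edgeR adjusted p = 0.281), nor did it in any of the 14 alternatives. The longest Rraga and Rragb transcripts share no stretch of 30 bases, the longest exact match being 26 bases.

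As a share of the Rraga and Rragb counts per transcript length, Rragb reached 1.66, 1.39 and 1.50% in the knockout libraries. In wildtype replicates 1 to 3 it was 0.314, 0.279 and 0.273%. Rraga therefore supplied nearly all Rag A or B transcript in both genotypes, also where Rragb had risen. The mean shares of 1.52 ± 0.137 and 0.289 ± 0.0217% (SD, n = 3 each) were from libraries that did not overlap between genotypes (p = 0.1 by exact permutation, two-sided, the floor of this design, and 0.15 adjusted over the 3 shares). Without division by length the share was 1.93% (95% Wilson interval 1.71 to 2.18) to 2.30% (2.05 to 2.59) in knockout and 0.381% (0.262 to 0.554) to 0.437% (0.327 to 0.584) in wildtype libraries.

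Rragc encodes the Rag C protein on which folliculin acts (Entrez 54170, chromosome 4, 123917433 to 123936997), and it was the most abundant of the 10 transcripts. It had 928, 929 and 921 CPM in knockout and 581, 722 and 736 CPM in wildtype libraries. All knockout libraries lay above all wildtype libraries, and wildtype replicate 1 was the lowest. The log2 fold change of 0.45 (SE 0.128) missed the threshold (edgeR adjusted p = 0.0621). It passed in 5 of 14 alternatives, among them DESeq2 (0.44, DESeq2 adjusted p = 0.0175) and edgeR without wildtype replicate 1 (0.34, edgeR adjusted p = 0.000353). Over all genes DESeq2 called 2671 of 14957, and without wildtype replicate 1 edgeR called 34.4%. Rragd, the close relative of Rragc, named here after its values were seen, was scarce at 0.548 ± 0.193 CPM in knockout and 0.393 ± 0.283 CPM in wildtype libraries (edgeR adjusted p = 0.685).

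Tfe3 was the leading TFE factor (Entrez 209446, chromosome X, 7762530 to 7775202). It had 200, 173 and 173 CPM in knockout and 131, 177 and 179 CPM in wildtype libraries, and the groups overlapped, with wildtype replicate 1 the lowest of the 6. The log2 fold change was 0.17 (SE 0.153, edgeR adjusted p = 0.495), and 0.03 without wildtype replicate 1. Of the Tfeb, Tfe3, Mitf and Tfec counts per transcript length, Tfe3 supplied 92.5 ± 0.784% in the knockout group and 90.5 ± 3.86% in the wildtype group (SD, n = 3). An exact permutation test of this share, two-sided, gave p = 0.6, which was 0.6 adjusted over the 3 shares. Wildtype replicate 1 had the lowest share of the 6 libraries, 86.02%, and without it the difference turned from 2.05 to -0.16 percentage points.

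Mitf, the TFE relative best known from pigment cells (Entrez 17342, chromosome 6, 97807002 to 98021360), had 7.72, 6.39 and 7.13 CPM in knockout and 11.1, 6.43 and 7.78 CPM in wildtype libraries. The groups overlapped, and the log2 fold change of -0.26 (SE 0.221, edgeR adjusted p = 0.463) was -0.00 without wildtype replicate 1, the highest library. Tfeb (Entrez 21425, chromosome 17, 47737037 to 47792416) had 4, 6 and 6 counts in knockout and 11, 2 and 3 counts in wildtype libraries, or 0.0770 to 0.264 CPM, too few for the filter on low counts. With no filter its log2 fold change was -0.21 (SE 0.630, edgeR adjusted p = 0.870), and 3 counts correspond to 0.0720 to 0.137 CPM depending on the library. Tfec, the remaining family member, had 2.84 ± 1.09 CPM in knockout and 2.74 ± 0.461 CPM in wildtype libraries (edgeR adjusted p = 0.944).

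Gpnmb encodes a membrane glycoprotein of lysosomes and melanosomes (Entrez 93695, chromosome 6, 49036518 to 49058182). It had 42.9, 44.1 and 45.8 CPM in knockout and 37.0, 33.8 and 34.3 CPM in wildtype libraries, so that all knockout libraries were above all wildtype libraries. The log2 fold change was 0.34 (SE 0.113) and did not pass (edgeR adjusted p = 0.0961), but without wildtype replicate 1 it did (0.38, edgeR adjusted p = 0.00407), the only one of the 14 alternatives in which it passed. In that fit 34.4% of all tested genes passed. GPNMB is also abundant in macrophages. Of 10 immune, blood and endothelial markers 4 could be tested and 1 passed, Cd68, a lysosomal glycoprotein of macrophages, at 10.3 to 11.03 CPM in knockout and 1.24 to 3.63 CPM in wildtype libraries (log2 2.28, edgeR adjusted p = 0.0108). The summed level of these 10 was 117 to 121 CPM in knockout and 37.3 to 82.7 CPM in wildtype libraries, mostly Pecam1, while Cdh5 and Hba-a1 were at 0 in all 6 libraries. Ptprc, Adgre1 and Lyz2, markers of leukocytes and macrophages, were at or under 0.344 CPM in every library, and the macrophage receptor gene Csf1r was at 0.318 to 0.454 CPM in knockout and 0.385 to 0.778 CPM in wildtype libraries. The part of such cells in the Gpnmb values was not tested.

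**Figure D3:**
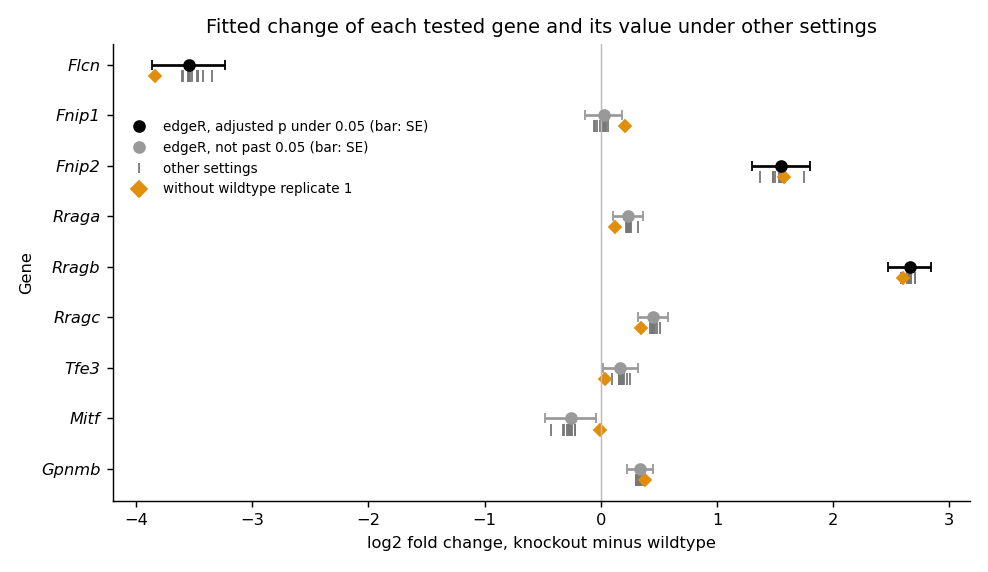
Fitted log2 fold change of the 9 tested genes, knockout minus wildtype, with its standard error as a bar (black past an adjusted p of 0.05 in edgeR, grey not), and below it the values under the other settings (ticks) and without wildtype replicate 1 (diamonds). Flcn lies at -3.55, Rragb at 2.66 and Fnip2 at 1.55, and the remaining genes lie between -0.26 and 0.45.

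Between genes, levels can be compared only per transcript length. As CPM per kilobase of the longest annotated transcript, the wildtype order was Rragc (230 ± 29.0), Rraga (180 ± 24.9), Flcn (35.4 ± 13.5), Tfe3 (25.6 ± 4.32), Gpnmb (9.47 ± 0.460), Fnip1 (9.36 ± 1.88), Mitf (1.73 ± 0.494), Rragb (0.518 ± 0.0354), Fnip2 (0.253 ± 0.0236) and Tfeb (0.0681 ± 0.0408; SD, n = 3). Neighbours in this order whose ranges over libraries overlapped were Rragc with Rraga, Flcn with Tfe3, and Gpnmb with Fnip1. Within each wildtype library Rragc was above Rraga, while the order of the other pairs differed between libraries. The longest Tfe3 transcript (6328 bases) is not protein-coding, and the longest coding one has 3390 bases. For Flcn these lengths are 3567 and 3437 bases, so by coding length the wildtype mean of Tfe3 would stand above that of Flcn. In knockout oocytes Flcn moved from rank 3 to rank 7, at 3.03 ± 0.367 CPM per kilobase, next to Rragb at 3.27 ± 0.331 (SD, n = 3), and these were the only neighbours whose ranges overlapped. Within each knockout library Rragb was above Flcn, narrowly in replicate 3 (3.226 against 3.208). Thus Flcn, in wildtype oocytes well above both FNIP genes, was in knockout oocytes below Fnip1 (9.54 ± 0.578 CPM per kilobase, SD, n = 3).

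Apart from Gm16062, 2 further neighbours of these genes passed the test. Gripap1, which encodes a protein of recycling endosomes and lies 14758 bases from Tfe3, had 0.589, 0.668 and 0.397 CPM in knockout and 7.76, 8.28 and 9.24 CPM in wildtype libraries. It fell (log2 -3.92, SE 0.236, edgeR adjusted p = 0.000198), while Tfe3 beside it had the overlapping values given above. Mycbp, which encodes a MYC-binding protein and lies 5182 bases from Rragc, had 125, 124 and 135 CPM in knockout and 184, 190 and 190 CPM in wildtype libraries. Its log2 fold change was -0.55 (SE 0.106, edgeR adjusted p = 0.0182), opposite in sign to that of Rragc, and it kept its call in 8 of 14 alternatives. Of 21 neighbouring and overlapping genes examined, 14 could be tested, and these 3 were the ones that passed, all lower. Over all tested genes 11.2% passed, 5.34% lower, and Gm16062 could be tested through the wildtype libraries alone.

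**Figure D4:**
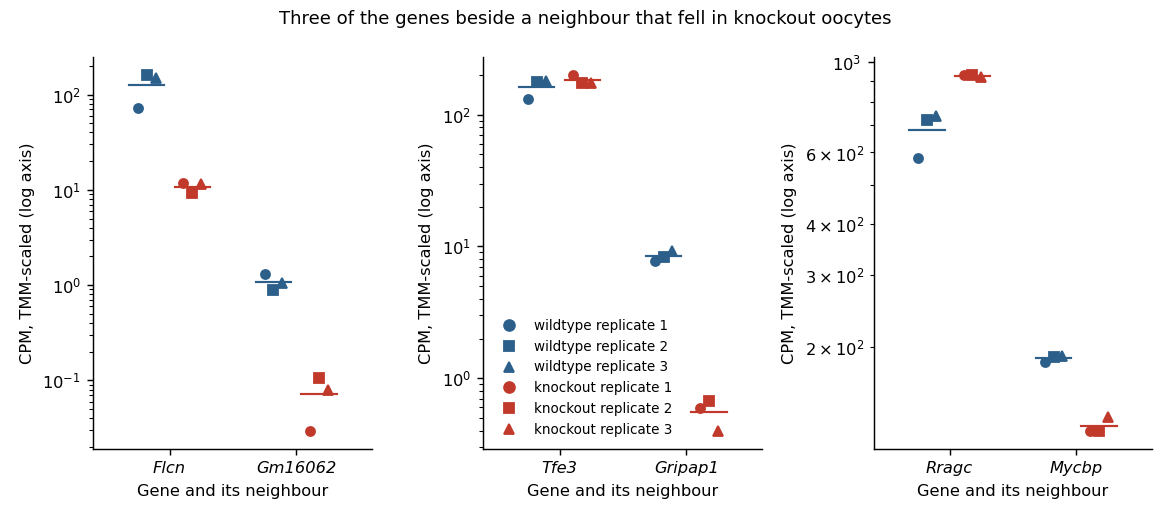
CPM on a log axis of Flcn, Tfe3 and Rragc, each beside a neighbouring gene that fell in knockout oocytes, by library, with lines at group means (n = 3). Flcn and Gm16062 are both lower in all knockout libraries, while Tfe3 overlaps between genotypes and Rragc is higher in knockout libraries beside lower Gripap1 and Mycbp.

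The 5 genes whose profile over the 6 libraries lay nearest to that of Flcn were sought among 8320 named genes with a mean of at least 10 CPM over the 6 libraries. Likeness was the root mean square difference of log2(CPM + 0.5) after centring each gene. They were Ss18, a subunit of the BAF chromatin remodeler (0.188), Lsr, a lipoprotein receptor (0.225), Eif3b, a core subunit of eIF3 (0.329), Cul2, a cullin scaffold (0.397), and Hyal2, a hyaluronidase (0.419). Ss18 had 13.4, 13.9 and 13.8 CPM in knockout and 113, 180 and 177 CPM in wildtype libraries. Wildtype replicate 1 was the lowest of its group, a feature that the choice by likeness to Flcn selects for. For Rragb, among 9756 genes with a mean of at least 5 CPM, they were Sycp3, of the synaptonemal complex (0.144), Spef1, a microtubule protein (0.153), Atp4a, a proton pump subunit (0.167), Gpr143, a receptor of pigment organelles (0.184), and Tnfrsf21, a death domain receptor (0.207). Lsr, Eif3b and Cul2 reached this minimum through the wildtype libraries, and Spef1 and Atp4a theirs through the knockout libraries. These distances describe 6 libraries of 2 genotypes and carry no test.

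The rest of the pathway was read from lists of 97 genes, of which 95 were tested. In all, 11 rose, 2 fell and 82 did not pass in edgeR, with 5.87% of all tested genes higher and 5.34% lower. The median log2 fold change of the 95 was 0.10.

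The next counts stand beside 11.2% of all tested genes that passed in edgeR and 2671 of 14957 called by DESeq2. No such share is given for an unadjusted p under 0.05, so counts by that measure have no background beside them. Of 7 genes comprising Rragd and those for the scaffold that holds the Rag proteins on the lysosome (the Lamtor genes and the amino acid transporter Slc38a9) 0 passed in edgeR, 1 had an unadjusted p under 0.05 (Lamtor1, log2 0.44, edgeR adjusted p = 0.0561), and 1 passed in DESeq2. Of 6 tested genes of GATOR1 and KICSTOR, which turn Rag A and B off, 0 passed in edgeR or DESeq2. Kptn, with a log2 fold change of -0.43 (edgeR adjusted p = 0.154), was the only one with an unadjusted p under 0.05. Of 12 genes of GATOR2 and the amino acid sensors 1 rose, Castor1, the cytosolic arginine sensor, from 16.4 ± 0.353 to 23.3 ± 1.26 CPM (SD, n = 3 each, log2 0.51, SE 0.120, edgeR adjusted p = 0.0347). Castor1 kept its call in 7 of 14 alternatives.

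In the list of mTORC1, Rheb and the TSC complex that inhibits Rheb, 1 of 9 genes fell and 1 rose. Mlst8, a core subunit of the mTOR complexes, had 0.914, 0.588 and 0.715 CPM in knockout and 5.52, 3.81 and 4.53 CPM in wildtype libraries (log2 -2.65, SE 0.255, edgeR adjusted p = 0.00156). Rheb, the GTPase that activates mTORC1, and Tbc1d7, a TSC subunit, had log2 fold changes of 0.14 and -0.30 (edgeR adjusted p = 0.409 and 0.179). Akt1s1, an inhibitory subunit of mTORC1, rose from 41.3 ± 6.75 to 61.8 ± 3.86 CPM (SD, n = 3 each, log2 0.58, edgeR adjusted p = 0.0443) and kept its call in 5 of 14 alternatives, whereas Mlst8 kept it in all 13 in which it was tested.

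For AMPK, the energy-sensing kinase that binds the FNIP proteins, 0 of 7 tested genes passed in edgeR, and Prkab1, the only one with an unadjusted p under 0.05, had a log2 fold change of 0.49 (edgeR adjusted p = 0.0823), a call made by DESeq2. For C9orf72, Smcr8 and Wdr41, whose products form a complex built on the same DENN fold as folliculin and FNIP, 0 of 3 passed in edgeR or DESeq2, and 0 had an unadjusted p under 0.05. Of 12 genes for 14-3-3 proteins, calcineurin and exportin, which set where TFE factors reside, 0 passed in edgeR or DESeq2. Ywhah (log2 -0.35, edgeR adjusted p = 0.132) was the only one with an unadjusted p under 0.05. Without wildtype replicate 1, where 34.4% of all tested genes passed, more genes of these lists did too. Lamtor1, Lamtor4 and Prkab1 were then higher and Kptn, C9orf72, Ywhah and Xpo1 lower, Lamtor4 being named after its values were seen.

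The list of FNIP1 turnover and HSP90, the chaperone that folliculin and FNIP proteins bind, had 12 tested genes, of which 1 fell. Cul2, the scaffold of the FEM1B ubiquitin ligase that degrades FNIP1, had 8.08, 8.50 and 8.82 CPM in knockout and 31.7, 75.7 and 72.5 CPM in wildtype libraries. Its knockout libraries lay close together below all wildtype libraries, and wildtype replicate 1 was again the lowest of its group. It fell with a log2 fold change of -2.82 (SE 0.321, edgeR adjusted p = 0.00299) and kept its call in all 14 alternatives. Fem1b had a log2 fold change of -0.40 (edgeR adjusted p = 0.123), Hsp90ab1 one of -0.47 (edgeR adjusted p = 0.0582) and Elob, an adaptor subunit of the ligase, one of -0.83 (edgeR adjusted p = 0.0936). DESeq2 called 3 of the list, Cul2, Elob and Hsp90ab1, all lower, and the unadjusted edgeR p was under 0.05 for 4. Over all genes DESeq2 called 2671 of 14957, with 1342 of them lower.

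Among 27 genes known as TFE targets 9 rose and 18 did not pass, where 5.87% of all tested genes rose and 11.2% passed. Their median log2 fold change was 0.44. The libraries of the genotypes did not overlap for 19, as they did not for 40.2% of all tested genes. The 4 with the largest change were Ctsd, the protease cathepsin D (log2 1.55, edgeR adjusted p = 0.000789), Neu1, the lysosomal sialidase (1.27, edgeR adjusted p = 0.00617), Sqstm1, the autophagy receptor p62 (0.85, edgeR adjusted p = 0.0173), and Amdhd2, an enzyme of amino sugar breakdown (0.58, edgeR adjusted p = 0.0268). The other 5 were Lamp1, Mcoln1, Atp6v0d1, Atp6v1h and Atp6v1a, with log2 fold changes from 0.44 to 0.58, named to complete the count, after their values were seen. Earlier results of these data had already shown lysosomal genes higher, so this list is no independent evidence of direction.

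Ctsd and Neu1 kept their calls in all 14 alternatives, and Sqstm1 in 10. Without wildtype replicate 1 the list had 13 higher and 1 lower, in a fit in which 34.4% of all tested genes passed, 16.7% higher and 17.7% lower. The lower gene, also named after its values were seen, was Ppargc1a, a coactivator of mitochondrial biogenesis, at 0.135 ± 0.0942 against 0.630 ± 0.322 CPM over all libraries (SD, n = 3 each, edgeR adjusted p = 0.0519), with enough counts for the test through the wildtype libraries alone. Without wildtype replicate 2 or 3 the list had 3 and 2 higher, where 473 of 15430 and 501 of 15394 tested genes were. Without knockout replicates 1, 2 and 3 the list had 2, 2 and 3 higher. In those fits 228 of 15328, 216 of 15191 and 249 of 15148 tested genes were higher, so calls became fewer over all genes too. Of the 20 listed genes with a promoter window, 9 had a CACGTG in at least 1 window. It was in 6.02% of all windows and 7.97% of those of tested genes. These are shares of windows, of which a gene can have several, so the figures are not like for like. TFE factors bind this sequence, so finding it in a list of their known targets is no result of these data. Among the 3 genes that changed here, only Rragb had it.

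**Figure D5:**
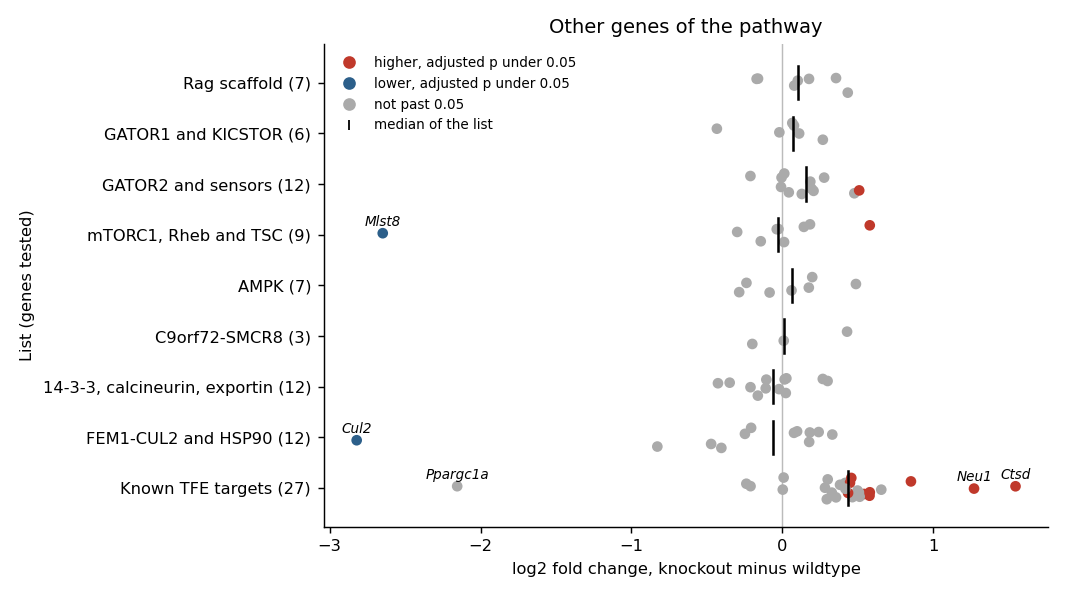
Log2 fold change, knockout minus wildtype, of each tested gene of 9 pathway lists (red higher and blue lower past an adjusted p of 0.05 in edgeR, grey not), with a line at each list's median; vertical scatter within a list has no meaning. Cul2 and Mlst8 stand far to the left at -2.82 and -2.65, and the known TFE targets have the highest median, 0.44.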

How the data were processed

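RNA from pools of about 10 oocytes was extracted, made into cDNA with the SMARTer Ultra Low Input kit and sequenced single-end after NexteraXT preparation, per the labels' protocols. STAR 2.7.11a, featureCounts 2.0.3 and build GRCm38.p6 (mm10) are listed in the submitters' processing notes. The sources used here give no annotation, strand setting or handling of multi-mapped reads. The deposited values are raw read counts per Entrez gene, of which 25275 of 27179 were named from RefSeq.

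Genes were filtered with filterByExpr (minimum count 10), scaled by TMM and tested with edgeR 4.0.16 (R 4.3.3; quasi-likelihood F test, genotype only, Benjamini-Hochberg over all 14957 tested genes, threshold 0.05). SE is the absolute log2 fold change over the square root of F. CPM are computed here, as mean ± SD. Transcript lengths are the longest in GENCODE M21. The fit was tested on simulated data. Within groups no 2 libraries were alike within sampling noise. Named were all 10 genes, the nearest profiles and up to 4 genes per list, called ones of largest change first. Of the neighbours, those that passed were named, with Pld6, Gm17359 and 4930589L23Rik. Members and lists were chosen with earlier results of these data known. Kics2 was not matched. Intervals cover counting error only.

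Alternatives were DESeq2 size factors, upper quartile scaling, library totals, no filter, a filter of 5 CPM in 3 libraries, DESeq2 1.42.0, limma-voom 3.58.1, the replicate number as a block, and each library left out. For Gm16062, Gripap1, Mycbp, Cul2 and Mlst8 they were added after seeing the data.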

Additional observations from a re-analysis of the deposited data

How the results depend on the processing

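Flcn, Rragb and the targeted gene Prdm10 kept direction and call in all 14 alternatives. The stricter filter admitted Rragb through the knockout libraries alone and Prdm10 through the wildtype libraries alone, so that setting is no independent check of them. Fnip2 had log2 fold changes of 1.37 to 1.75 with 1 library left out, and was too low for the stricter filter. The number of called genes over the 10 followed here was 3, and 2 to 5 with 1 library left out, where the highest number, without wildtype replicate 1, added Rragc and Gpnmb. In that fit 34.4% of all tested genes passed. Over all genes 1676 passed, against 1038 under the stricter filter, 2671 with DESeq2, 537 with the replicate block, and 357 to 5199 with 1 library left out. Of the pathway lists 13 genes passed, against 20 with DESeq2, 4 with the replicate block and 4 to 30 with 1 library left out. Deviations from the group mean had correlations of -0.0855, -0.00519 and -0.107 between libraries of the same number. With 3 libraries per group and wildtype replicate 1 apart, these values cannot decide whether the numbers pair libraries. The knockout minus wildtype difference in the Rragb share was 1.23 percentage points, 1.70 in raw counts and 3.18 with the shortest transcripts, and that in the Fnip2 share 4.61 and, with the shortest transcripts, 17.97. The difference in the Tfe3 share was -0.16 to 3.38 with 1 library left out, reversed without wildtype replicate 1. Fnip1, which never passed, changed sign to -0.00406 under the stricter filter and ranged from -0.0606 to 0.204 with 1 library left out, negative without knockout replicate 3 or wildtype replicate 2 or 3 (-0.0308, -0.0535 and -0.0606). The causes of these shifts were not tested. Tfeb had too few counts at this depth.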
